A study of Mus musculus with 3 samples.

Results

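The first 35 Mb of mouse chromosome 1 held a disproportionate number of the ChIP-seq peaks called in NE4C cells, an established mouse neural stem cell line. Every peak on chromosome 1 whose start lay before 35 Mb in the mouse genome mm9 was taken, which gave 2041 of 34026 peaks: 755 of 7387 for H3K79Hcy, 747 of 7300 for KHcy and 539 of 19339 for H3K4me3. The 2317 other peaks of chromosome 1 served for comparison. The stretch was chosen by the number of peaks per Mb in these same lists, so its peak numbers are a description and no test was made of them. The assembly starts with a gap of 3 Mb, so the stretch holds 31.9 Mb of known sequence and the rest of the chromosome 160 Mb.

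Each list came from 1 library of chromatin immunoprecipitated from NE4C cells grown on poly-L-lysine, for which the labels state no treatment. One antibody bound lysine 79 of histone H3 when homocysteinylated (H3K79Hcy), another bound any homocysteinylated lysine (KHcy), and the last bound lysine 4 of histone H3 when trimethylated (H3K4me3). With 1 library per antibody there are no replicates, and the 95% Wilson intervals given for shares cover counting error only. All 3 libraries came from a single cell line, and nothing in the labels says whether they share a culture. For each peak the lists give its position, its width in whole windows of 200 bp, the number of reads in it and a score from the peak caller. No value of a control is in the lists. The scores imply a single background per library over the whole genome, at 1.59 (H3K79Hcy), 1.49 (KHcy) and 1.38 (H3K4me3) reads per 200 bp. The fold of a peak is its reads per 200 bp relative to that background, so it takes no account of how many reads the surroundings of a peak received.

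Lysine homocysteinylation is the addition of homocysteine, an amino acid of the methionine cycle, to lysine side chains through its reactive thiolactone, and it needs no enzyme to be written. H3K79 lies on the surface of the nucleosome core, where its methylation is known from the bodies of transcribed genes. H3K4me3 is the classic mark of active promoters, where it forms sharp peaks at gene starts. Peaks of such marks are usually scattered over a chromosome with its genes, so the number of peaks per Mb commonly follows gene density and GC content.

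Of the 8 H3K79Hcy peaks in the stretch that overlapped peaks of both other lists, 7 had bases common to all 3. Sequences of 120 bases from 5 of these sites show how unlike they are. Each is read 5′ to 3′ from the mm9 build (NCBIM37), and capitals mark bases within 31-base words that occur more than once in the genome. The sites at 4931408C20Rik and Sox17 are the bases just before the gene start, on the minus strand (chr1:26744306-26744425 and chr1:4486495-4486614). Those at Atp6v1h (chr1:5099541-5099660, plus strand) and Cpa6 (chr1:10451941-10452060, plus strand) lie in introns, at the centre of the shared bases. The site nearest to Sulf1 (chr1:12345141-12345260, plus strand) lies between genes, 363 kb from Sulf1.
4931408C20Rik: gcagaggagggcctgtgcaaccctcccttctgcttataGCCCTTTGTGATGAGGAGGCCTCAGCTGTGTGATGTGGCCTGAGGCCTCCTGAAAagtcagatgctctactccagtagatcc
Atp6v1h: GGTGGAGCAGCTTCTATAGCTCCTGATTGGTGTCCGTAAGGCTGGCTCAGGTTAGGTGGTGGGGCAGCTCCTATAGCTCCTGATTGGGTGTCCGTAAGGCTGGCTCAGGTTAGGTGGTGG
Cpa6: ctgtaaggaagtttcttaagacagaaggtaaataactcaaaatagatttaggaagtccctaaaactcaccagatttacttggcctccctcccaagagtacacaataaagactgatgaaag
nearest Sulf1: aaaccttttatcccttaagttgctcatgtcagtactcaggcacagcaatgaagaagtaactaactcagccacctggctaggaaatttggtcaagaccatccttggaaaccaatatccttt
Sox17: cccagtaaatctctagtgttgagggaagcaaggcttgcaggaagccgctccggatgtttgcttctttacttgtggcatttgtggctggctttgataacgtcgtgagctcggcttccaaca

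In the Atp6v1h sequence all 120 bases lay in repeated words, against 55 in that of 4931408C20Rik and 0 in the remaining ones. The Sox17 sequence held 5 CG pairs and the Atp6v1h sequence 2, while the others held 0. GC content was 37.5% in the Cpa6 sequence, 41.7% in that nearest to Sulf1, 50.8% in Sox17, 55.8% in 4931408C20Rik and 57.5% in Atp6v1h.

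H3K79Hcy peaks numbered 23.7 per Mb of known sequence in the stretch and 3.63 per Mb in the rest of chromosome 1, a ratio of 6.52. KHcy peaks were spaced almost alike, at 23.4 against 3.34 per Mb, a ratio of 7.01. H3K4me3 peaks numbered 16.9 against 7.55 per Mb, a ratio of 2.24. The stretch thus held 56.6% of the H3K79Hcy peaks of the chromosome, 58.4% of its KHcy peaks and 30.9% of its H3K4me3 peaks. Peaks covered 2.78% of the known bases of the stretch for H3K79Hcy, 4.92% for KHcy and 3.47% for H3K4me3, against 0.455%, 0.728% and 1.53% in the rest. Of all reads in peaks, 9.13% (19112) of the H3K79Hcy list, 9.60% (26580) of the KHcy list and 2.51% (19732) of the H3K4me3 list fell in the stretch.

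No other chromosome held as many peaks at its start. Among the 19 other chromosomes of the lists, the first 35 Mb held at most 214 H3K79Hcy peaks, 223 KHcy peaks and 465 H3K4me3 peaks, each time on chromosome 2, and the medians were 26, 23 and 102. Windows with many peaks existed elsewhere, however. The 32 bins of 1 Mb from 3 to 35 Mb were set against every run of 32 such bins on the other chromosomes, whose assembly gaps were not subtracted. The richest run held 629 H3K79Hcy and 690 KHcy peaks, both on chromosome 6, against 755 and 747 in the stretch. For H3K4me3 the richest run held 2205 peaks, on chromosome 5, so in that list the stretch was not a maximum.

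Within the stretch the density of both homocysteine lists was sustained. Over its 32 bins of 1 Mb, H3K79Hcy peaks numbered 10 at the lowest, 22 at the median and 38 at the highest, and KHcy peaks 8, 21.5 and 51. H3K4me3 peaks were more uneven, at 3, 15 and 46. At least 10 peaks stood in 32 of 32 bins for H3K79Hcy, 31 for KHcy and 24 for H3K4me3. In the 162 bins of the rest of the chromosome that level was reached in 6, 4 and 48 bins, and the median bin held 3, 3 and 4.5 peaks. The sets of bins did overlap: 4 bins of the rest held more H3K79Hcy peaks than the poorest bin of the stretch, 7 held more KHcy peaks and 94 more H3K4me3 peaks. The bin at 173 Mb reached the median of the stretch in all 3 lists, and that at 90 Mb in H3K79Hcy and H3K4me3.

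**Figure D1:**
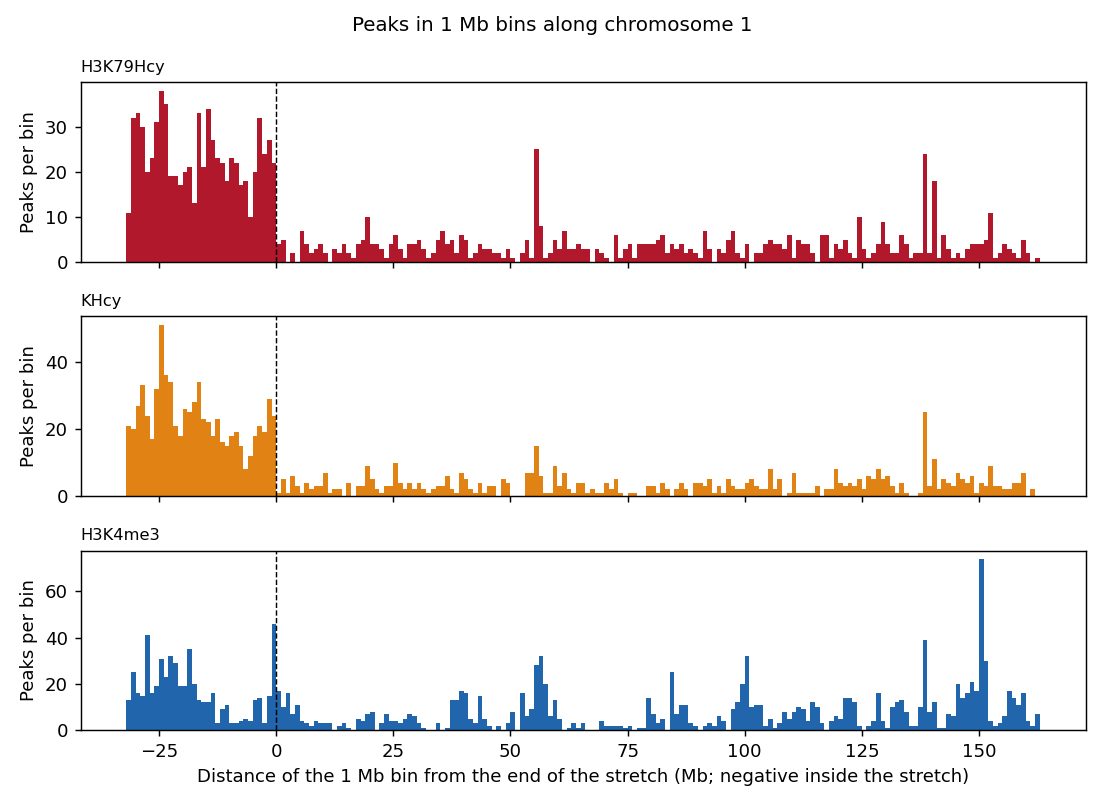
Number of peaks (vertical axes) in each 1 Mb bin of chromosome 1, by distance in Mb from the end of the stretch (dashed line), with 1 panel per antibody. Bars left of the line belong to the stretch, where H3K79Hcy bins hold 10 to 38 peaks and KHcy bins 8 to 51, and isolated tall bins stand in the rest.

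The richest bin was the same in both homocysteine lists, at 10 to 11 Mb, where Cpa6 and the start of Prex2 lie, with 38 H3K79Hcy and 51 KHcy peaks. The poorest were neighbours, at 29 Mb for H3K79Hcy and 28 Mb for KHcy. Across the 32 bins the counts of H3K79Hcy and KHcy gave a Spearman rho of 0.49, those of KHcy and H3K4me3 0.57 and those of H3K79Hcy and H3K4me3 0.11. H3K4me3 counts also went with the GC content of the bin (rho = 0.61), more than KHcy (0.32) or H3K79Hcy (0.14) counts did. These coefficients are descriptions, since neighbouring bins share 1 library, the same genes and similar base composition.

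The density also changed along the stretch, described here by 3 spans that were delimited after the counts had been seen. From 3 to 22 Mb all lists were dense, with 25.1 H3K79Hcy, 26.8 KHcy and 21.4 H3K4me3 peaks per Mb. From 22 to 34 Mb the H3K79Hcy list stayed at 21.5 and the KHcy list at 17.9 per Mb, whereas H3K4me3 stood at 7.31 per Mb, slightly below its 7.55 in the rest of the chromosome. The GC content of this span was 38.4%, and bins of the rest with 38.5% to 40.5% GC held 3.53 H3K4me3 peaks per Mb, fewer than this span did. The bins of the span ran from 36.4% to 41.4% GC, however, so these sets are not of like GC content. The lowest GC content of any segment of the stretch lay in this span, 36.9% in the segment from 25 to 30 Mb, in which 6 protein-coding genes start and 90 H3K79Hcy, 72 KHcy and 19 H3K4me3 peaks were called. In the last Mb of the stretch, where GC content was 45.1% and 12 genes start, H3K4me3 reached its maximum of 46 peaks beside 22 H3K79Hcy and 24 KHcy peaks.

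The fall at the end of the stretch was abrupt for the homocysteine lists. In successive bins from 34 Mb, H3K79Hcy peaks numbered 22, 4, 5, 0, 2 and 0, and KHcy peaks 24, 1, 5, 1, 6 and 3. H3K4me3 peaks numbered 46, 17, 10, 16, 7 and 11 in the same bins. Both homocysteine lists dropped from one bin to the next, while the H3K4me3 list fell from a single high bin to numbers mostly above its average in the rest. When the chromosome was split at the boundary that best separates 2 constant rates, that boundary lay at 35 Mb for H3K79Hcy with bins of 1 Mb, 500 kb and 100 kb alike. For KHcy it lay at 35 Mb with the wider bins and at 34.6 Mb with bins of 100 kb. For H3K4me3 it lay at 18 Mb, and its place moved with the settings, to 18.5 Mb with bins of 500 kb and 22 Mb with a stricter score. The stretch was picked for its density in these lists, so a boundary at its end in the homocysteine lists was largely given in advance.

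The peaks on both sides of 35 Mb were ordinary ones. The last H3K79Hcy peak inside (chr1:34981601-34982600) and the first outside (chr1:35074201-35075200) had 21 reads and a fold of 2.64 each, 91.6 kb apart. For KHcy the peaks were chr1:34990201-34992200 with 27 reads (fold 1.82) and chr1:35031001-35033000 with 37 reads (fold 2.49). For H3K4me3 they were chr1:34988401-34991400 with 48 reads (fold 2.32) and chr1:35036001-35038000 with 44 reads (fold 3.19). The genes at the boundary were Arhgef4, which encodes a guanine nucleotide exchange factor, Fam168b and Plekhb2. Arhgef4 (chr1:34778769-34870154) held 2 H3K79Hcy, 2 KHcy and 6 H3K4me3 peaks. Fam168b held 0, 0 and 2, and Plekhb2, which ends at chr1:34936425, held 1, 0 and 0.

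The 5 Mb beyond the drop, from 35 to 40 Mb, were richer in genes and in GC than any 5 Mb segment of the stretch. In them 48 protein-coding genes start and GC content was 45.1%, yet H3K79Hcy peaks numbered 2.2 and KHcy peaks 3.2 per Mb. Right at the drop these values did not rise. The Mb before it held 12 gene starts at 45.1% GC, and the Mb after it 0 at 43.8%. H3K4me3 peaks numbered 12.2 per Mb from 35 to 40 Mb and fell to 3.2 per Mb from 40 to 45 Mb. Over the stretch as a whole 4.04 protein-coding genes per Mb were annotated, against 6.95 per Mb in the rest of the chromosome. GC content was 39.5% against 41.5%, and 19.8% against 14.3% of all 31-base words were found at more than 1 place in the genome. The dense stretch thus had fewer genes, less GC and more repeated sequence than the remainder.

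**Figure D2:**
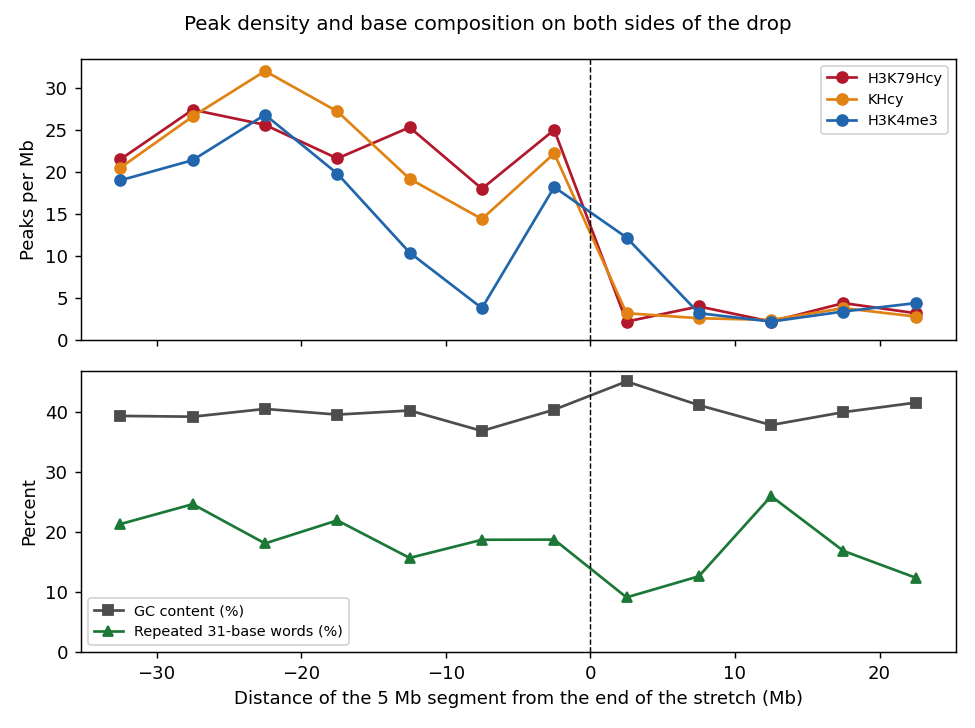
Peaks per Mb of known sequence in 5 Mb segments (upper panel) and the GC content and share of repeated 31-base words of the same segments, in percent (lower panel), by distance in Mb from the end of the stretch (dashed line). H3K79Hcy and KHcy fall from 25 and 22.2 to 2.2 and 3.2 peaks per Mb across the line, while GC content rises from 40.4% to 45.1%.

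Bins of like GC content gave a similar picture for the homocysteine lists and a larger contrast for H3K4me3. In the 16 bins of the stretch with the middle 50% of its GC content (38.5% to 40.5%), there were 24.8 H3K79Hcy, 26.2 KHcy and 18.5 H3K4me3 peaks per Mb. In the 32 bins of the rest within that range there were 3.88, 3.59 and 3.53 per Mb. The H3K4me3 ratio was then 5.24, against 2.24 without regard to GC content. Leaving out peaks with over 10% repeated words moved the H3K4me3 ratio the other way, to 1.80, while the ratios of H3K79Hcy and KHcy were then 6.21 and 6.79. The known bases were kept whole in these ratios, so repeated sequence, more frequent in the stretch, still counted in their lengths. In the peaks of the stretch the median share of repeated words was lowest in the H3K79Hcy list (0.714%), then 2.06% in the KHcy list and 4.93% in the H3K4me3 list. Both of these choices, of bins and of peaks, were made after the data had been seen.

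By their medians, the members resembled the other peaks of the chromosome in width and reads. The median width was 1200 bp for H3K79Hcy, 2000 bp for KHcy and 1800 bp for H3K4me3, in the stretch and in the rest alike. Reads per 200 bp had medians of 4.29 against 4.25, 3.36 against 3.30 and 3.54 against 3.50, which in fold is 2.69 against 2.67, 2.26 against 2.22 and 2.56 against 2.53. Each difference was far smaller than the spread between peaks, since the middle 50% of the H3K79Hcy peaks of the stretch ran from 3.89 to 4.83 reads per 200 bp. The median distance to the next peak did differ, but it restates the peaks per Mb by which the stretch was picked. It was 24.8 against 164 kb for H3K79Hcy, 23.6 against 160 kb for KHcy and 19.8 against 38.8 kb for H3K4me3. Very wide peaks differed as well. For H3K79Hcy, 1 peak of the stretch (0.132%) was wider than 3000 bp, against 20 (3.45%) in the rest. For KHcy the shares were 7.90% against 5.63% and for H3K4me3 9.65% against 6.89%, the other way around. The widest peaks had 3200 against 9600 bp, 5800 against 23000 bp and 10600 against 52800 bp.

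Scores were a little higher in the stretch, at medians of 17.6 against 16.8 for H3K79Hcy, 24.1 against 22.6 for KHcy and 24.1 against 23.5 for H3K4me3. The score grows with the width and the reads of a peak. A stricter score, set 4.61 above the lowest score of each list, was passed by 267 (35.4%) of the H3K79Hcy peaks of the stretch and 27.1% of those in the rest, where 31% of the whole list passed. For KHcy it was passed by 358 (47.9%) against 31.5%, with 41% of the whole list. For H3K4me3 it was passed by 312 (57.9%) against 53.4%, with 59.3% of the whole list. Among these higher-scoring peaks the density ratio was 8.51 for H3K79Hcy and 10.7 for KHcy, and 2.42 for H3K4me3.

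Very strong peaks were few. A fold over 5 was reached by 5 H3K79Hcy peaks of the stretch (0.662%), 3 KHcy peaks (0.402%) and 3 H3K4me3 peaks (0.557%), where the whole lists had 2.73%, 1.78% and 1.39% of such peaks. In the rest of chromosome 1 the numbers were 7 (1.21%), 5 (0.938%) and 13 (1.08%), and the counting intervals of both parts overlapped in each list. For H3K79Hcy they were 0.283% to 1.54% in the stretch and 0.587% to 2.47% in the rest. The peaks of the stretch were therefore mostly moderate, as were those of the rest of the chromosome.

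**Figure D3:**
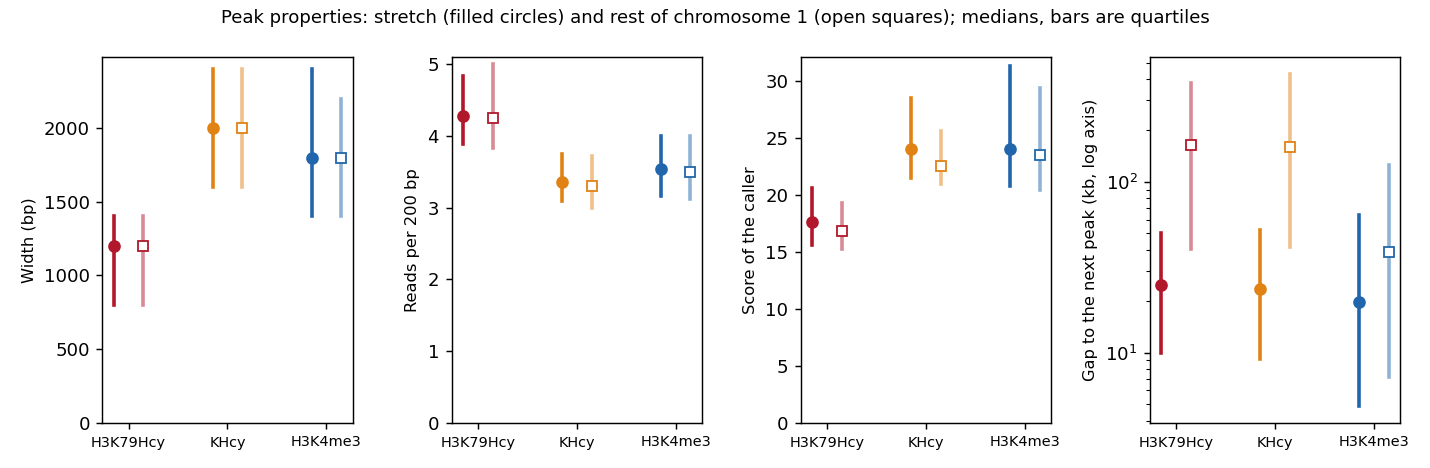
Medians of peak width in bp, reads per 200 bp, caller score and gap to the next peak in kb (logarithmic axis) for the 3 lists, with filled circles for the stretch and open squares for the rest of chromosome 1. Vertical lines span the lower to the upper quartile over peaks. Median widths coincide and median reads per 200 bp lie close together, while the gap to the next peak is shorter in the stretch. The shorter gap restates the density by which the stretch was picked.

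The strongest peak was the same in all 3 lists. It spanned chr1:26742801-26745400 in the H3K79Hcy and H3K4me3 lists and chr1:26742201-26745400 in the KHcy list, and covered the start of 4931408C20Rik, whose promoter sequence is printed above. It had 246 reads (fold 11.9) for H3K79Hcy, 222 (fold 9.34) for KHcy and 192 (fold 10.7) for H3K4me3. No other peak of the stretch came near these folds. The next strongest H3K79Hcy peaks were chr1:25597201-25597600 in an intron of Bai3, a brain adhesion receptor, and chr1:24740801-24741200 in an intron of Lmbrd1, which encodes a lysosomal cobalamin transporter. Both had 17 reads in 400 bp, a fold of 5.34.

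For KHcy the next was the intronic Atp6v1h site, chr1:5099401-5099800, with 17 reads (fold 5.72). Atp6v1h encodes a subunit of the vacuolar proton pump. The third KHcy peak was chr1:12634601-12635400, 73.2 kb from Sulf1, with 30 reads (fold 5.05). The second H3K4me3 peak lay at the same Atp6v1h site, at chr1:5099001-5100000 with 42 reads (fold 6.08), and the third was chr1:5558001-5558600, 19.97 kb from the opioid receptor gene Oprk1, with 23 reads (fold 5.55). Repeated words made up 65.5% of the KHcy peak at Atp6v1h and 48.8% of the H3K4me3 peak there, against 3.96% of the H3K79Hcy peak at 4931408C20Rik. The part of repeated sequence in the reads counted at Atp6v1h was not tested.

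Although the homocysteine lists were dense in the same stretch, most of their peaks did not coincide. Of the H3K79Hcy peaks, 107 of 755 (14.2%, interval 11.9% to 16.8%) overlapped a KHcy peak by at least 1 bp, where 13.9% of the whole list did. In the rest of chromosome 1 the count was 70 of 579 (12.1%). The share of peaks that overlap by position alone is far larger where both lists are dense, so every window of 1200 bp, at steps of 200 bp, was also classed. Of these windows 7.23% touched a KHcy peak in the stretch and 1.05% in the rest. Overlap was thus 1.96 times that of all windows in the stretch and 11.5 times in the rest. Both shares of peaks were alike, but they stood against very different shares of all windows.

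Overlap with H3K4me3 stood nearer still to that of all windows. It was found for 51 H3K79Hcy peaks (6.75%, interval 5.17% to 8.77%), where 15.4% of the whole list did so and 5.06% of all windows of the stretch. In the rest of the chromosome it was found for 80 (13.8%), against 2.26% of all windows. For KHcy, 55 peaks (7.36%, interval 5.70% to 9.46%) overlapped H3K4me3, where 16.5% of the whole list did so and 6.21% of all windows. In the rest, 61 KHcy peaks (11.4%) did, against 2.80% of all windows. Seen from the other side, 51 of 539 H3K4me3 peaks of the stretch (9.46%) overlapped H3K79Hcy and 55 (10.2%) overlapped KHcy, beside 6.49% and 8.57% of all windows of 1800 bp and 5.19% and 6.18% of the whole H3K4me3 list.

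Sites of all 3 lists were scarce in the stretch. Only 8 of 755 H3K79Hcy peaks (1.06%, interval 0.538% to 2.08%) overlapped both other lists, against 56 of 579 (9.67%) in the rest of chromosome 1 and 7.39% of the whole list. Peaks in neither other list made up 80.1% (605) in the stretch, 83.8% in the rest and 78.1% of the whole list. In the rest of the chromosome the H3K79Hcy peaks that overlapped KHcy were also stronger, with a median fold of 3.52 against 2.64 for those that did not. In the stretch the medians were 2.69 and 2.69. The median score was higher for the overlapping peaks in both parts. It was 18.9 against 17.1 in the stretch and 38.1 against 16.6 in the rest. When only peaks past the stricter score in both lists were kept, the share of H3K79Hcy peaks overlapping KHcy was 10.5% in the stretch and 32.5% in the rest, which turns the order of the 2 shares around.

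**Figure D4:**
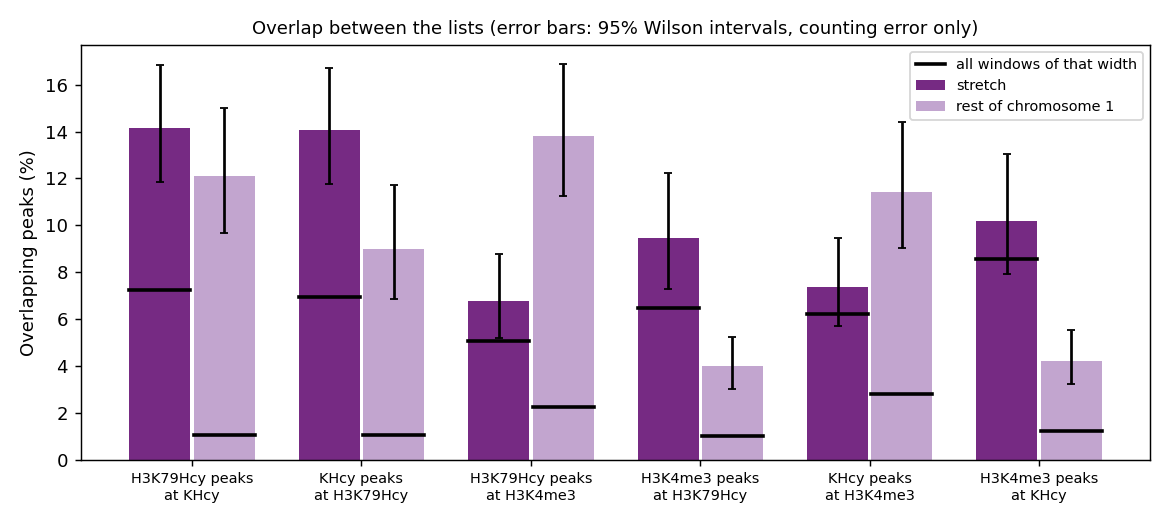
Share of the peaks of 1 list that overlap a peak of another by at least 1 bp, in percent, for the stretch (dark bars) and the rest of chromosome 1 (light bars), with 95% Wilson intervals for counting error. Black lines give the share of all windows of the median peak width that touch the other list. The lines lie close under the bars for H3K4me3 in the stretch (5.06% under 6.75% for H3K79Hcy) and far below them in the rest.

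Of the 8 shared sites, 2 lay at gene starts, those of 4931408C20Rik and Sox17, and 5 touched a gene body. Beside 4931408C20Rik and Atp6v1h (folds of 4.40, 5.72 and 6.08 for H3K79Hcy, KHcy and H3K4me3), the site in Cpa6 had folds of 2.65, 2.63 and 2.53. That nearest to Sulf1 had 2.98, 2.24 and 2.53, and that 65.9 kb from Tram2 had 3.14, 2.22 and 2.22 but no base common to all 3 lists. Without 4931408C20Rik and Atp6v1h, the shared sites had folds of 2.65 to 3.30 for H3K79Hcy, 2.06 to 2.63 for KHcy and 2.08 to 3.41 for H3K4me3, where the medians of the stretch were 2.69, 2.26 and 2.56.

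By its centre, a peak was placed in a promoter (2000 bp before the start of a protein-coding gene), an exon, an intron or between genes. Of the H3K79Hcy peaks of the stretch, 0.927% lay in promoters, 1.72% in exons, 36.7% in introns and 60.7% between genes. The known bases of the stretch were divided almost in the same way, at 0.794%, 1.67%, 34.4% and 63.2%. KHcy peaks lay in these places at 0.937%, 1.61%, 39.2% and 58.2%. H3K4me3 peaks were more often in promoters, at 3.90% (interval 2.56% to 5.88%), with 66.6% between genes. In the rest of the chromosome 6.06% of H3K4me3 peaks lay in promoters, where 1.37% of positions do. Relative to positions the promoter share of H3K4me3 peaks was thus raised on both sides, though most H3K4me3 peaks lay away from annotated promoters.

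Of the 129 protein-coding genes of the stretch, 62 (48.1%) held an H3K79Hcy peak in the body, where 7.82% of all genes did, and 67 (51.9%) held a KHcy peak, where 9.28% did. For H3K4me3 the number was 76 (58.9%), beside 19.7% of all genes. In the rest of chromosome 1 the shares were 14.3%, 17.1% and 29.1%. Peaks of all 3 lists stood in 43 genes (33.3%), against 4.78% in the rest and 2.91% of all genes. The density within gene bodies was close to that of the whole stretch, at 25.4 H3K79Hcy, 26.8 KHcy and 15.5 H3K4me3 peaks per Mb of gene. A peak in the bodies of overlapping genes was counted for each of them, here and in the totals of the gene groups.

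Gene length went with these counts. All 25 genes over 100 kb held an H3K79Hcy peak and all 25 a KHcy peak, against 42.2% and 48.2% of the 166 such genes in the rest. H3K4me3 peaks stood in 24 of the 25, against 50.6%. Of the 57 genes under 20 kb, 9 held an H3K79Hcy peak (15.8%) and 9 a KHcy peak, against 3.36% and 4.62% in the rest. The 31 genes without a peak of any list had a median length of 3.69 kb.

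The genes with the most peaks were long, and 3 of them were among the top 5 of every list. Sntg1, which encodes the neuronal protein gamma-1 syntrophin, spans 938 kb and held 26 H3K79Hcy, 17 KHcy and 8 H3K4me3 peaks. A830018L16Rik (562 kb) held 20, 23 and 15. Cpa6, a carboxypeptidase gene of 395 kb, held 18, 27 and 13. Per 100 kb, Cpa6 had 4.55 H3K79Hcy and 6.83 KHcy peaks, against 2.77 and 1.81 in Sntg1, so the number of peaks per length was not the same in these genes.

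Kcnq5, which encodes a voltage-gated potassium channel of neurons, followed for H3K79Hcy with 19 peaks, and Bai3 with 17. For KHcy, St18, a zinc-finger transcription factor gene, held 20 peaks and Dst, a cytoskeletal linker gene, 14. Prex2, an exchange factor for the GTPase Rac, and Dst held 7 H3K4me3 peaks each. The 2 homocysteine lists differed within some of these genes. Kcnq5 had 19 H3K79Hcy and 10 KHcy peaks, while Dst had 6 and 14. Counts of this size carry a counting error of several peaks, and no replicate shows whether such differences recur.

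**Figure D5:**
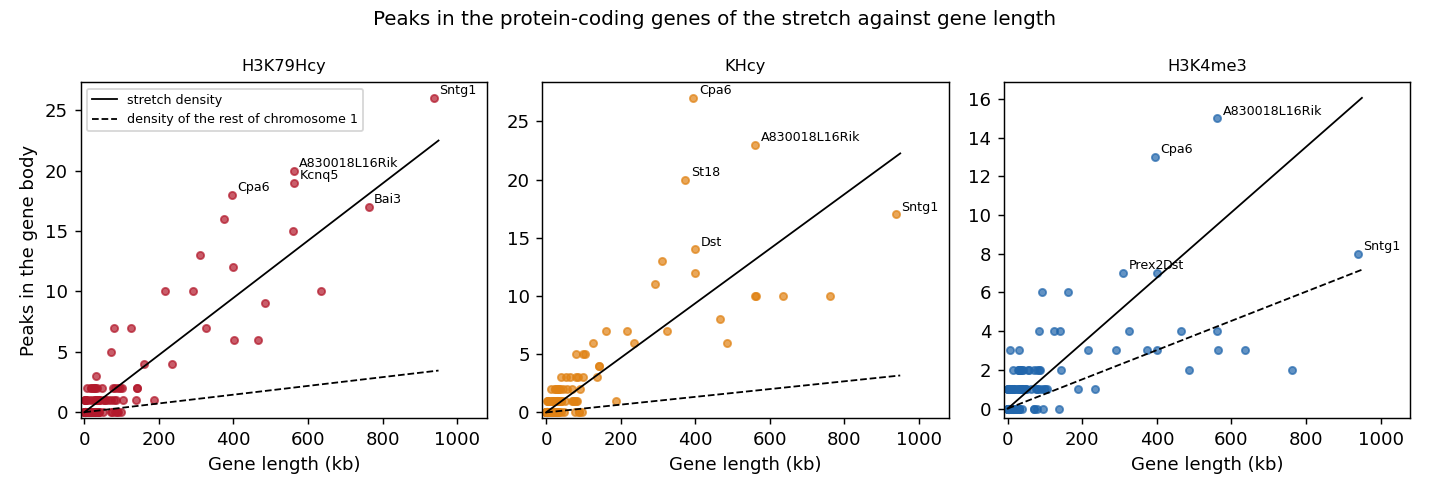
Number of peaks in the body of each of the 129 protein-coding genes of the stretch (points) against gene length in kb, with 1 panel per antibody and the 5 genes with most peaks named. The solid line is the density of the whole stretch and the dashed line that of the rest of chromosome 1. Long genes lie on both sides of the solid line for H3K79Hcy and KHcy. Cpa6, St18 and A830018L16Rik are among those above it, and Bai3 is among those below.

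Few gene starts lay inside homocysteine peaks, but these peaks cover only 2.78% (H3K79Hcy) and 4.92% (KHcy) of the known bases of the stretch. The shares of starts, 4.65% (interval 2.15% to 9.78%) and 7.75% (interval 4.26% to 13.7%), were not below that coverage. The start lay in an H3K79Hcy peak for 6 genes (4.65%), where 0.416% of all genes did so and 1.08% in the rest of the chromosome. These were Sox17, a transcription factor of endoderm and vessels, Mrpl15, a mitochondrial ribosomal protein, Prex2, Crisp4, a secreted protein of the male reproductive tract, the interleukin Il17f and 4931408C20Rik. Apart from 4931408C20Rik, with 18.9 reads per 200 bp, these starts had 3.57 (Crisp4) to 6.33 (Mrpl15) reads per 200 bp. In the KHcy list the start was covered for 10 genes (7.75%), where 0.996% of all genes did so. They were Sox17, St18, Cpa6, Slco5a1, Jph1, Crisp4, Gsta3, 4931408C20Rik, Bag2 and Prss39, and their peaks had 2.94 (Slco5a1) to 13.9 (4931408C20Rik) reads per 200 bp. Both homocysteine lists covered the starts of Sox17, Crisp4 and 4931408C20Rik.

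The start lay in an H3K4me3 peak for 22 genes (17.1%, interval 11.5% to 24.5%), where 5.41% of all genes did so and 8.03% in the rest. The highest levels were at 4931408C20Rik (14.8 reads per 200 bp), Kcnq5 (6), Sox17 (4.71), Tcfap2b (4.69), which encodes a transcription factor of the neural crest and kidney, and Prex2 (4.33). Apart from 4931408C20Rik, these levels were within a fold of 3.14 to 4.34. H3K4me3 usually marks the starts of active genes, and which genes are active in these cells was not analysed here.

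The genes of the stretch were also described in 5 groups by known role, and these groups are uneven in gene length. Of the 16 genes for neuronal excitability, synapse and adhesion, with a median length of 345 kb, 15 held H3K79Hcy, 15 KHcy and 14 H3K4me3 peaks (93.8%, 93.8% and 87.5%, beside 48.1%, 51.9% and 58.9% of all 129 genes). They held 128, 116 and 50 peaks in all, or 2.36, 2.14 and 0.923 per 100 kb, against 2.54, 2.68 and 1.55 per 100 kb over all 129 genes. Pooled over genes, the values per length of this group were thus below those of all 129 genes in each list, a difference that was not tested. The medians over genes were instead higher for H3K79Hcy (2.36 against 0 per 100 kb) and KHcy (2.37 against 1.24). For H3K4me3 the median was lower too, at 0.856 against 0.958. Within the group, the channel gene Kcnb2 had 12, 12 and 3 peaks. Rims1, an organizer of the presynaptic active zone, had 10, 10 and 3, and Stau2, which carries RNA in dendrites, had 10, 11 and 3. Khdrbs2, an RNA-binding protein of neurons, had 9, 6 and 2.

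The members named next had fewer H3K79Hcy peaks than Khdrbs2, though some had more peaks in the other lists. Xkr4 had 6 H3K79Hcy, 8 KHcy and 4 H3K4me3 peaks, and Rgs20, a regulator of G-protein signalling, had 4, 7 and 6. Jph1, which joins the plasma membrane to the reticulum in muscle, had 2, 5 and 1, and the irritant receptor gene Trpa1 had 2, 2 and 1. Oprk1 had 2, 0 and 0 and Gdap1, a gene of peripheral nerve disease, had 0, 1 and 0.

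Of the 11 genes for developmental transcription factors and cofactors, 8 held H3K79Hcy, 8 KHcy and 10 H3K4me3 peaks, with 28, 39 and 20 peaks in all. As shares these were 72.7%, 72.7% and 90.9%, beside 48.1%, 51.9% and 58.9% of all 129 genes. Per 100 kb the group held 2.93, 4.08 and 2.09 peaks, against 2.54, 2.68 and 1.55. Their starts lay in an H3K4me3 peak in 5 cases: Sox17, Eya1, a cofactor of ear and kidney development, Msc, Tcfap2d and Tcfap2b. St18 alone held 16 of the 28 H3K79Hcy and 20 of the 39 KHcy peaks of the group. Ncoa2, a coactivator of nuclear receptors, had 4, 6 and 1 peaks and Eya1 had 2, 4 and 4. Sox17, in 5.49 kb, held 1 H3K79Hcy, 1 KHcy and 3 H3K4me3 peaks, and Tcfap2b 0, 2 and 3. Tcfap2d had 1, 3 and 1, Mybl1, a regulator of male meiosis, 2, 1 and 1, Bend6 1, 2 and 2, and Gm10567 1, 0 and 1. The germ cell gene Prdm14 held 0 in every list.

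Of the 23 genes of basic cell machinery, 11 held H3K79Hcy, 14 KHcy and 18 H3K4me3 peaks, with 29, 31 and 26 peaks in all. The share with an H3K79Hcy peak, 47.8%, was close to that of all 129 genes (48.1%), while the shares for KHcy and H3K4me3 were 60.9% and 78.3%, beside 51.9% and 58.9%. Per 100 kb the group held 2.61, 2.79 and 2.34 peaks, against 2.54, 2.68 and 1.55. The leading members were Prim2, a subunit of the DNA primase, with 10, 7 and 3 peaks over 216 kb, and Atp6v1h with 7, 5 and 2. Rpl7, a ribosomal protein gene, and Bag2, a co-chaperone gene, were those of the group with the start in an H3K4me3 peak. The replication helicase gene Mcm3 had 2, 1 and 1 peaks and Pcmtd1 1, 3 and 4. The autophagy gene Rb1cc1 had 1, 2 and 2, and Cspp1, a centrosome gene, had 0, 3 and 1. Tram1 had 2, 0 and 1, Arfgef1 2, 0 and 0 and the telomere gene Terf1 0, 2 and 1. Lypla1, Tcea1 and Ube2w had 1 of each, and Mrpl15 had 1, 0 and 1. The bodies of Lypla1 and Tcea1 overlap, and a peak in both was counted for each. Vcpip1 had 0, 1 and 1, Bag2 0, 2 and 1, Cops5 and Phf3 0, 1 and 0, and Tceb1 0, 0 and 2. Rrs1, Rpl7 and Lactb2 had 0, 0 and 1, while Tmem70 and Ptp4a1 held 0 in every list.

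Of the 8 matrix and secreted protein genes, 4 held H3K79Hcy, 8 KHcy and 6 H3K4me3 peaks, with 42, 54 and 27 in all. Of all 129 genes 48.1%, 51.9% and 58.9% did so. Per 100 kb the group held 2.60, 3.35 and 1.67 peaks, against 2.54, 2.68 and 1.55. Besides Cpa6 these lay mainly in Pkhd1, the gene of recessive polycystic kidney disease (15, 10 and 4), and in the collagen gene Col19a1 (7, 7 and 4). The sulfatase gene Sulf1 had 2, 4 and 2 peaks, Crispld1 0, 3 and 0, Gm106 0, 1 and 2, Tram2 0, 1 and 2, and Pi15 0, 1 and 0. The last 5 genes are those of immune cells and of the eye, whose products neural stem cells are not known for. Of them, 3 held H3K79Hcy and 3 KHcy peaks (60% each, beside 48.1% and 51.9% of all 129 genes). H3K4me3 peaks stood in 0 of them (beside 58.9%). Their median length was 16.25 kb, and of the genes of the stretch under 20 kb 33.3% held an H3K4me3 peak. Per 100 kb the group held 6.55, 3.93 and 0 peaks, against 2.54, 2.68 and 1.55, though from only 5, 3 and 0 peaks. Il17f had 2 H3K79Hcy peaks, Lgsn, a lens gene, 2 H3K79Hcy and 1 KHcy peak, Ly96, a part of the endotoxin receptor, 1 of each, and Il17a 1 KHcy peak. Rp1, a photoreceptor gene, held 0 in every list.

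How many reads each library received over the stretch outside its peaks cannot be read from the lists, so whether the surroundings of these peaks also stood above the background of the genome was not tested. The same holds for reads of an input, which is not analysed here.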

How the data were processed

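ChIP-seq peak lists of NE4C cells (H3K79Hcy, KHcy and H3K4me3, 1 library each) were analysed. The authors' methods name Bowtie 2 for alignment, MACS for peak calling (1.4.2 in the submitters' processing notes, with the build mm9) and filtering against an input, whereas a figure legend names SICER. For each peak the authors deposited the count of reads, not normalized for depth, and a score of the caller. The columns where a control would stand hold no values. Reads in peaks were 209335, 276864 and 787308. Total depth is not given in the lists. The paper reports fewer H3K79Hcy and H3K4me3 peaks than these lists hold, far fewer for H3K4me3, and the reason was not tested.

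The 27, 8 and 14 peaks of 1 window gave the background, since their score is minus the natural log of the Poisson probability of their reads. Genes were the protein-coding genes of GENCODE M1 on NCBIM37, the same build. Older symbols were matched for 4 listed genes (Tfap2b, Tfap2d, Tcf24 and Sbspon are Tcfap2b, Tcfap2d, Gm10567 and Gm106). Known sequence leaves out assembly gaps, and repeated 31-base words were found by counting on both strands of the genome. Overlap required 1 bp. The drop was the boundary between bins with the largest Poisson likelihood for 2 rates. A stricter score added the natural log of 100 to the lowest score. No p-value was computed. Functions were tested on simulated data.

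The members, gene groups and the rule for named genes were chosen with earlier results of these data known. The rule took, per list, the 5 genes with most peaks and the 3 strongest peaks, genes whose start lay in an H3K79Hcy or KHcy peak, the 5 highest H3K4me3 starts, the 5 shared sites of largest smallest fold, genes at the drop and all members of the 5 groups, of which 1 is not reported here by name. Alternatives changed the score, merged peaks within 3000 bp, moved the end of the stretch to 30 or 40 Mb, and changed bins, lengths, gene bounds and overlap rules. Python 3.11.15 with numpy 2.4.6, pandas 2.3.3, scipy 1.17.1 and matplotlib 3.10.9 was used.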

Additional observations from a re-analysis of the deposited data

How the results depend on the processing

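Of 57 alternatives over 18 values with a counting interval, 31 stayed within it, 23 moved out of it and 3 turned the order of stretch and rest around. The place of the drop, which has no such interval, was the same in 5 of its 9 alternatives. In the homocysteine lists, a drop at the end of the picked stretch was largely given in advance. The density ratio stayed above 1 in all 24 of its alternatives, which was largely given in advance because the stretch was picked for its density in these lists. For H3K79Hcy it was 8.51 with the stricter score, 5.48 with the stretch ending at 30 Mb and 5.65 at 40 Mb. For KHcy these values were 10.7, 6.04 and 6.18. For H3K4me3 it was 5.24 in bins of like GC content and 1.80 without peaks of over 10% repeated words. The drop lay at 34.6 Mb for KHcy with bins of 100 kb, and for H3K4me3 at 18.5 Mb with bins of 500 kb, 18.1 Mb with bins of 100 kb and 22 Mb with the stricter score.

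With the stricter score, median widths were 1400, 2400 and 2200 bp for H3K79Hcy, KHcy and H3K4me3, the same in the stretch and the rest. Median reads per 200 bp were then 4.25 for H3K79Hcy against 4.67 in the rest and 3.40 for KHcy against 3.42, both now lower in the stretch, and 3.64 for H3K4me3. Genes with a peak were 31.8%, 41.9% and 45.7%. Among peaks within 200 bp of the median width, median scores were 23.5 for KHcy and 22.6 for H3K4me3, the latter 22.6 in the rest too.

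Overlap of H3K79Hcy with KHcy was 11.4% when 50% of the peak had to be covered, 19.3% within 1000 bp and 10.5% with the stricter score in both lists, against 32.5% in the rest. That of H3K79Hcy with H3K4me3 was 9.67% within 1000 bp and 4.87% with the stricter score, against 35.03% in the rest. That of KHcy with H3K4me3 was 4.55% with 50% covered and 10.4% within 1000 bp. The cause of these changes was not tested, except that a rule of wider or narrower overlap raises or lowers the share by construction. The choices of GC content, repeated words, bins of 100 kb and peaks of like width were made after the data had been seen. No paired analysis was possible because each antibody has 1 library. Without replicates or a control in the lists, neither the spread between experiments nor the level of reads around the peaks is known.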
